A study of Homo sapiens with 8 samples.

Results

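The gene for fibronectin (FN1) and 9 genes for matricellular proteins (THBS1, THBS2, TNC, POSTN, SPARC, SPP1, TGFBI, SPOCK1 and SMOC1) were followed across 4 culture conditions. They were taken by gene symbol, and all 10 were found among the 25369 genes of the count and FPKM tables. The cells were LX-2, an immortalized human hepatic stellate cell line of wild type genotype, and all libraries came from this single line. Cells moved from tissue culture plastic were grown for 2 or 4 days on polyacrylamide hydrogels, soft at 2 kPa or stiff at 40 kPa, with 2 RNA-seq libraries per condition and 8 in all. Both gels carried a crosslinked layer of plasma fibronectin, so cells of every condition met the protein of one of these genes from the start, and RNA-seq does not see that layer. The study describes the replicates as independent experiments, while the labels do not say how the cultures were kept apart.

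Fibronectin is a large adhesive glycoprotein that cells assemble into fibrils through integrins, above all through the receptor made of ITGA5 and ITGB1. Matricellular proteins are secreted into the same matrix but act less as scaffold than as modulators, binding integrins, growth factors, proteases and collagen. In the liver, hepatic stellate cells are a main source of both when they turn into myofibroblasts, and a stiffer matrix is known as one of the cues that favour this change.

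The libraries held between 19955975 and 27263935 counts, and the 10 genes together took from 0.253% to 0.389% of them. Levels below are CPM, counts scaled to library size with edgeR's TMM factors, which lay between 0.870 and 1.08. Mesenchymal markers were high, with VIM at 1966 to 6360 CPM and COL1A1 at 504 to 1021 CPM, while LRAT and DES did not exceed 0.0491 and 0.0982 CPM, and COL1A2 stayed at 2.13 to 4.06 CPM. The 11 stellate cell markers summed to between 3225 and 4129 CPM in the 2-day libraries and to between 5247 and 7845 CPM in the 4-day libraries. Of the 5 hepatocyte markers, TTR was at 0 throughout, ALB, APOA1 and APOB stayed under 1 CPM and SERPINA1 was at 4.37 to 10.3 CPM, and all 5 endothelial markers stayed under 1 CPM. CD163 and CD3E were at 0, although CD68 reached 83.8 to 119 CPM. The 4 cholangiocyte markers summed to at most 37 CPM at 2 days and 50.7 to 71.2 CPM at 4 days, mostly SOX9 and KRT7. Both this sum and that of the stellate cell markers were thus higher in each 4-day library, the latter through VIM, whose mean on the soft and the stiff matrix was 2016 and 2663 CPM at 2 days and 4370.3 and 5179.6 CPM at 4 days. ACTA2 rose too, from means of 9.34 and 8.05 CPM at 2 days to 18.3 and 14.5 CPM at 4 days. TAGLN rose from 370 and 443 to 441 and 756 CPM. COL1A1 went the other way, from 952 and 874 CPM to 686 and 588 CPM. PDGFRB had means of 22.8 and 16.5 CPM against 20.8 and 13.2 CPM. Its SDs on the soft matrix were 2.59 and 3.94 CPM. The low genes COL1A2 and PDGFRA had higher means at 4 days on both matrices. RELN had a lower mean on the soft and a higher one on the stiff matrix. The part of these markers in the time effects below was not tested.

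Per gene length, as FPKM, the genes fell into 3 tiers that kept their place in all 4 conditions. TGFBI, SPARC and FN1 formed the top tier. After 2 days on the soft matrix they stood at 234 ± 15.6, 135 ± 4.26 and 123 ± 2.64 FPKM (SD, n = 2 for this and every later FPKM value), which placed them above 98.4%, 96.7% and 96.3% of the 14570 tested genes. SPOCK1, THBS2, TNC and THBS1 followed, between 14.5 ± 0.285 FPKM for THBS1 and 58.6 ± 0.0693 FPKM for SPOCK1. SMOC1 at 2.01 ± 0.127 FPKM, SPP1 at 0.343 ± 0.00772 FPKM and POSTN at 0.0317 ± 0.0154 FPKM closed the order.

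**Figure D1:**
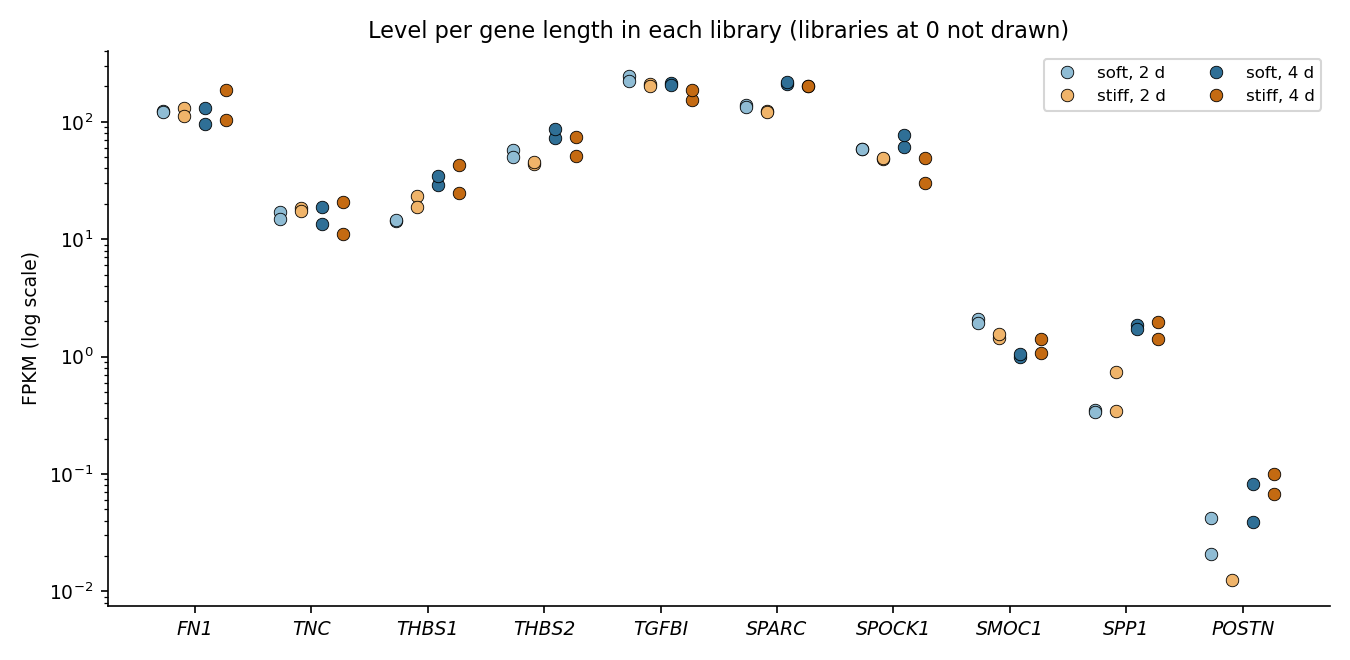
FPKM of the 10 genes on a log axis, 1 point per library, coloured by matrix and day. The top tier (FN1, TGFBI, SPARC) lies near or above 100 FPKM in every library, SMOC1 and SPP1 lie near 1 FPKM and POSTN lies near 0.1 FPKM or lower.

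The order within the tiers differed between days. TGFBI led after 2 days on both matrices, at 206 ± 6.54 FPKM on the stiff one. After 4 days SPARC stood first on both, at 214 ± 5.82 FPKM on the soft and 200 ± 0.488 FPKM on the stiff matrix. SPARC and TGFBI, at 209 ± 7.12 FPKM, overlapped between libraries on the soft matrix but not on the stiff one, where TGFBI was at 169 ± 24.1 FPKM and overlapped instead with FN1. THBS1 moved above TNC from the stiff 2-day condition on, and SPP1 moved above SMOC1 at 4 days on both matrices. Other neighbours whose libraries overlapped were SPARC and FN1 on the stiff matrix after 2 days, THBS2 and SPOCK1 on the soft matrix after 4 days, and SPOCK1 and THBS1 on the stiff matrix after 4 days.

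FN1 lies on the minus strand of chromosome 2 (GRCh37, from 216225163 to 216300796). Its promoter is shown because it holds the one cyclic AMP response element, TGACGTCA, found among these genes. It covers the 250 bases before the start of transcription, chr2:215436069-215436318 of GRCh38.p14 on the minus strand, from RefSeq, with the element in capitals 183 bases before the start.
FN1: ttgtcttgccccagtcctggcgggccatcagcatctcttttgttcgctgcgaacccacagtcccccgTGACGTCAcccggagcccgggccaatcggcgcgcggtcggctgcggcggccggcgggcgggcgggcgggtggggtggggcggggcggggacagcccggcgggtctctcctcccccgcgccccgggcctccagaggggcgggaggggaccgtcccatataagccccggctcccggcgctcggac
This element is a classical feature of the fibronectin promoter, and 1.85% of all 35116 RefSeq promoters hold it in the window searched, which adds the 50 bases after the start.

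FN1 was at 1121 and 1084 CPM after 2 days on the soft matrix and at 1170 and 999 CPM on the stiff one. After 4 days the soft libraries held 860.2 and 1192 CPM and the stiff ones 1694 and 945 CPM. At neither time did the matrices separate, since the libraries of each pair overlapped, and the widest gap of all was that between both stiff libraries of day 4. The log2 fold change of stiff over soft was -0.024 (standard error 0.28) at 2 days and 0.36 (standard error 0.28) at 4 days, with adjusted p-values of 0.9999 and 0.856 from the quasi-likelihood test of edgeR, adjusted after Benjamini and Hochberg over all tested genes. The 95% interval at 4 days ran from -0.29 to 1.01 on the log2 scale. FN1 is among the markers that the study listed for the later time point from these same libraries, so its direction there is not independent evidence. From 2 to 4 days FN1 moved by -0.10 on the soft and 0.28 on the stiff matrix, with adjusted p-values of 0.807 and 0.478 in the same edgeR test. These are bulk libraries, in which fewer cells that express a gene and less RNA per cell cannot be told apart.

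TNC, on the minus strand of chromosome 9 (GRCh37, from 117781854 to 117880486), encodes tenascin C, a hexameric glycoprotein that binds fibronectin and is laid down in wounds and fibrotic tissue. It was at 146 and 128 CPM on the soft matrix and 158 and 149.6 CPM on the stiff one after 2 days. Its 4-day libraries held 117 and 164 CPM on the soft and 181 and 96.6 CPM on the stiff matrix. The stiff pair lay above the soft pair at 2 days, and at 4 days the stiff pair enclosed the soft pair. The log2 fold change of stiff over soft was 0.17 at 2 days and -0.016 at 4 days, and that of 4 over 2 days was 0.036 on the soft and -0.15 on the stiff matrix, with adjusted p-values from 0.717 to 0.9999 in the edgeR test. Without scaling factors the soft time effect turned to -0.038, and offsets for gene length, added after the data were seen, turned the 4-day stiffness effect to 0.067 and the stiff time effect to 0.061, so no direction is given for TNC.

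**Figure D2:**
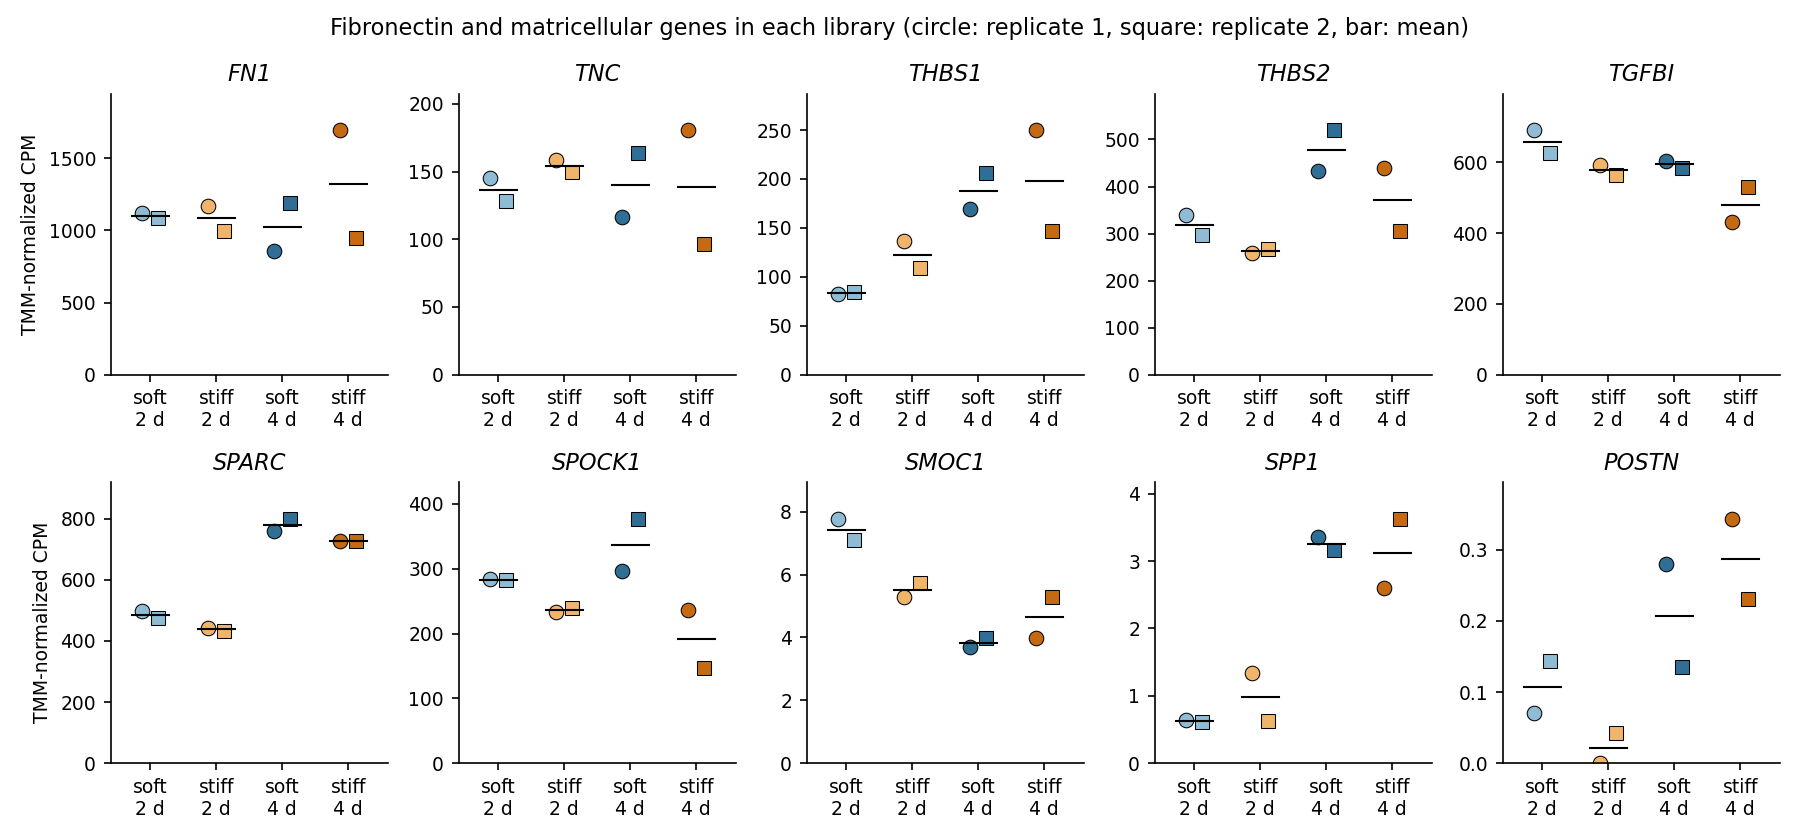
TMM-normalized CPM of the 10 genes in each of the 8 libraries, on linear axes that start at 0. Circles are replicate 1, squares replicate 2 and bars the mean of both. SPARC and SPP1 are higher in all 4-day than in all 2-day libraries, while for FN1 the stiff 4-day libraries (1694 and 945 CPM) overlap the soft ones and for TNC they enclose them.

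THBS1 and THBS2 encode thrombospondins 1 and 2, secreted trimers that bind CD47 and CD36 and hold back new blood vessels. Thrombospondin 1 also frees latent TGF-beta, the main fibrogenic cytokine of the liver. THBS1 lies on the plus strand of chromosome 15 (GRCh37, from 39873280 to 39891667) and THBS2 on the minus strand of chromosome 6 (GRCh37, from 169615875 to 169654145). Both promoters, shown for the 250 bases before the start, hold the core GGAATG that TEAD factors, the partners of the stiffness-sensitive coactivator YAP, are known to bind. In capitals it begins 46 bases before the start in THBS1, and in THBS2 103 bases before it on the other strand, as CATTCC, and again 91 bases before it. The windows are chr15:39580829-39581078 on the plus strand and chr6:169253847-169254096 on the minus strand of GRCh38.p14, from RefSeq.
THBS1: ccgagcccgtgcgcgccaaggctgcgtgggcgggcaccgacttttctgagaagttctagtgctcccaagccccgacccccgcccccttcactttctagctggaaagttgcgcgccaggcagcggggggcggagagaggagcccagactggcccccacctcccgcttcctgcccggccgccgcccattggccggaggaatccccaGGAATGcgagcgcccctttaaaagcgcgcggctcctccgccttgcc
THBS2: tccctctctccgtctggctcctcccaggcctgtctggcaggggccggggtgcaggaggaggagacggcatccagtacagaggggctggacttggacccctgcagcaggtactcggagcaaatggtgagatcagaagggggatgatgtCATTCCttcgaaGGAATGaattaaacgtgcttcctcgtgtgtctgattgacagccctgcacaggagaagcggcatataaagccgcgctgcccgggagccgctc

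THBS1 was at 82.9 and 84.9 CPM on the soft matrix and 136 and 109 CPM on the stiff one after 2 days. After 4 days it was at 169.8 and 206 CPM on the soft and 249.9 and 146 CPM on the stiff matrix. Every 4-day library stood above every 2-day library, and at 2 days both stiff libraries stood above both soft ones. On the soft matrix THBS1 rose 2.24-fold from 2 to 4 days, or by 1.16 on the log2 scale (standard error 0.25, edgeR adjusted p = 0.0144). The change on the stiff matrix was 0.70 (standard error 0.25) and missed the threshold (adjusted p = 0.0747 in edgeR), whereas DESeq2 called it with an adjusted p of 0.0447. Whether the time effects differ between the matrices was tested directly, and the difference of -0.47 had an unadjusted p of 0.222 and an adjusted p of 0.9997 in edgeR. The stiffness effect was 0.54 at 2 days (95% interval from -0.035 to 1.12, adjusted p = 0.9999) and 0.077 at 4 days (from -0.50 to 0.65, adjusted p = 0.965) in the same edgeR fit. The 4-day value turned to -0.021 without scaling factors.

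THBS2 was at 339 and 296 CPM on the soft matrix and 259 and 266 CPM on the stiff one after 2 days. Its 4-day libraries held 434 and 519.8 CPM on the soft and 438 and 305 CPM on the stiff matrix. The 4-day libraries of each matrix lay above its 2-day libraries, and at 2 days the stiff pair lay below the soft pair. The time effect of 0.59 on the soft matrix (standard error 0.20) narrowly missed the threshold with an adjusted p of 0.0597 in edgeR, and DESeq2 called it with an adjusted p of 0.0345. On the stiff matrix it was 0.50 (standard error 0.20, adjusted p = 0.0928 in edgeR and 0.0779 in DESeq2). The stiffness effects of -0.28 at 2 days and -0.36 at 4 days had adjusted p-values of 0.9999 and 0.825 in edgeR. The opposite signs of both thrombospondins at 2 days, 0.54 for THBS1 and -0.28 for THBS2, each rest on libraries that did not overlap, but neither passed the test.

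SPARC, SPOCK1 and SMOC1 encode the SPARC family, calcium-binding glycoproteins with a follistatin-like domain. SPARC, also called osteonectin, binds collagen and helps fibrils mature. SPOCK1 encodes testican 1, a proteoglycan, and SMOC1 a basement membrane protein known to restrain BMP signalling. SPARC lies on chromosome 5 (GRCh37, from 151040657 to 151066536) and SPOCK1 on the same chromosome (GRCh37, from 136310987 to 136934068), both on the minus strand, and SMOC1 on the plus strand of chromosome 14 (GRCh37, from 70320848 to 70499083). The SPARC promoter is shown since it too holds the TEAD core, as CATTCC 17 bases before the start. The window is chr5:151686916-151687165 on the minus strand of GRCh38.p14, from RefSeq.
SPARC: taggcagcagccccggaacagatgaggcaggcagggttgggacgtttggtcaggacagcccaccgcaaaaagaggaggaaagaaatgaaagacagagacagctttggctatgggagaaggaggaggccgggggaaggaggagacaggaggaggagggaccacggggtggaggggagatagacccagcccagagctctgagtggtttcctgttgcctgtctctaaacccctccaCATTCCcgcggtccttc
Over the 9 genes with a RefSeq promoter, all but SPOCK1, the TEAD core GGAATG was found in THBS1, THBS2 and SPARC, against 14.0% of all promoters when both strands are read. The AP-1 site TGANTCA was found in POSTN alone, 220 bases before its start, against 7.71% of all promoters. These matches over the 300 bases around each start are letters in a window and do not show a bound factor.

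SPARC had the most even replicates of these genes and changed with time on both matrices. It was at 498 and 475 CPM on the soft matrix and 442 and 434 CPM on the stiff one after 2 days. After 4 days it was at 758 and 800.0 CPM on the soft and 726 and 728 CPM on the stiff matrix. All 4-day libraries stood above all 2-day libraries, and at each day both stiff libraries stood slightly below both soft ones. SPARC rose 1.60-fold on the soft matrix (log2 fold change 0.68, standard error 0.13, adjusted p = 0.00834 in edgeR) and 1.66-fold on the stiff matrix (0.73, standard error 0.13, adjusted p = 0.00675). The difference between these time effects was 0.051 with a 95% interval from -0.36 to 0.46. The stiffness effect was -0.15 at 2 days (95% interval from -0.44 to 0.14) and -0.10 at 4 days (from -0.39 to 0.19), with adjusted p-values of 0.9999 and 0.896 in edgeR.

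SPOCK1 showed the largest stiffness effect at 4 days among the 9 tested genes, without passing the adjusted threshold. It was at 284 and 283 CPM on the soft matrix and 233 and 239 CPM on the stiff one after 2 days. Its 4-day libraries held 297 and 377 CPM on the soft and 237 and 147 CPM on the stiff matrix. All 4 stiff libraries thus lay below all 4 soft libraries, as in 1.82% of the tested genes, and no other of the 9 genes split this way. The log2 fold change of stiff over soft was -0.27 (standard error 0.23) at 2 days and -0.81 (standard error 0.23) at 4 days, where the unadjusted p was 0.00765 and the adjusted p 0.379 in edgeR and 0.0979 in DESeq2. The mean of both stiffness effects was -0.54 with a 95% interval from -0.91 to -0.17, an unadjusted p of 0.0103 and an adjusted p of 0.361 in edgeR. With offsets for gene length this mean was called (-0.51), beside 1.30% of all genes. Over time SPOCK1 moved by 0.25 on the soft and -0.30 on the stiff matrix, with adjusted p-values of 0.438 and 0.357 in edgeR.

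SMOC1 was a low gene, with 79 to 221 counts per library. It was at 7.78 and 7.09 CPM on the soft matrix and 5.29 and 5.74 CPM on the stiff one after 2 days. After 4 days it was at 3.69 and 3.97 CPM on the soft and 3.98 and 5.30 CPM on the stiff matrix. On the soft matrix the 4-day pair lay far below the 2-day pair, whereas on the stiff matrix the pairs overlapped. SMOC1 fell on the soft matrix to 0.515 of its 2-day level, a change of -0.96 on the log2 scale with a standard error of 0.20 (adjusted p = 0.0125 in edgeR), and on the stiff matrix its change was -0.25 (standard error 0.20, adjusted p = 0.377). The difference between these time effects, 0.70 with a 95% interval from 0.047 to 1.36, had an unadjusted p of 0.0387 and an adjusted p of 0.9997 in edgeR, so a difference between the matrices was not established over all genes.

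TGFBI and POSTN encode the fasciclin-domain proteins TGFBI, or keratoepithelin, and periostin, both induced by TGF-beta in many mesenchymal cells and both able to bind integrins. TGFBI lies on the plus strand of chromosome 5 (GRCh37, from 135364677 to 135399507) and POSTN on the minus strand of chromosome 13 (GRCh37, from 38136720 to 38172981). TGFBI was at 691 and 626 CPM on the soft matrix and 593 and 565 CPM on the stiff one after 2 days. Its 4-day libraries held 604 and 585 CPM on the soft and 429.9 and 529 CPM on the stiff matrix. At each day the stiff pair lay below the soft pair, and on each matrix the 4-day pair lay below the 2-day pair. None of these steps passed the test. The stiffness effect was -0.19 at 2 days and -0.31 at 4 days (standard error 0.15 each, adjusted p = 0.9999 and 0.784 in edgeR), and the time effect was -0.15 on the soft and -0.27 on the stiff matrix (adjusted p = 0.489 and 0.208). The mean of the stiffness effects, -0.25, had an unadjusted p of 0.0474 and an adjusted p of 0.630. Without scaling factors, which moves the median of all genes in the stiff time comparison from 0.03 to -0.10 on the log2 scale, the stiff time effect of TGFBI was called at -0.41.

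POSTN was hardly detected and did not pass the count filter of the main fit, so it was not tested there. It had 2 and 4 counts in the soft and 0 and 1 counts in the stiff libraries of day 2. At 4 days it had 6 and 3 counts on the soft and 7 and 4 counts on the stiff matrix. The count of 0 allows up to 3 counts, or 0.126 CPM, in that library, for counting error only. No fold change is given, since no library of either matrix held more than 7 counts.

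SPP1, on the plus strand of chromosome 4 (GRCh37, from 88896819 to 88904684), encodes osteopontin, a phosphoprotein that binds integrins and CD44 and is known as a profibrogenic signal in liver. It had 18 and 17 counts on the soft and 32 and 15 counts on the stiff matrix after 2 days, and 72 and 70 counts on the soft and 53 and 63 counts on the stiff matrix after 4 days. In CPM this was 0.634 and 0.612 against 1.34 and 0.628 at 2 days, and 3.36 and 3.16 against 2.60 and 3.63 at 4 days. All 4-day libraries stood above all 2-day libraries. SPP1 rose 5.19-fold on the soft matrix (log2 fold change 2.38, standard error 0.38, adjusted p = 0.00528 in edgeR) and 3.14-fold on the stiff matrix (1.65, standard error 0.37, adjusted p = 0.0164), and it stayed a low gene at 1.77 ± 0.0968 and 1.70 ± 0.388 FPKM. The log2 ratio between both stiff 2-day libraries was 1.001, larger in size than that of 98.5% of tested genes in that pair, and the stiff time effect was called at 2.30 without the first of them but not called at 1.202 without the second (adjusted p = 0.120 in edgeR). The stiffness effect of 0.66 at 2 days had a 95% interval from -0.31 to 1.62, and that of -0.069 at 4 days one from -0.85 to 0.71.

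All calls among the 9 tested genes came with time. Between the matrices 0 of 9 genes passed the adjusted threshold of edgeR at 2 days, where 0% of all tested genes did, and 0 of 9 at 4 days, where 0.247% of all genes did. At an unadjusted p under 0.05 the count was 0 of 9 at 2 days beside 2.82% of all genes, and 1 of 9 at 4 days, SPOCK1, which was lower, beside 4.32% of all genes lower. DESeq2 called 0 of 9 at both times, beside 0.196% and 1.08% of the genes it tested. Libraries of the 2 matrices did not overlap for 7 of 9 genes at 2 days, of which 5 were lower on the stiff matrix and THBS1 and TNC higher, beside 22.4% of all genes lower and 25.7% higher. At 4 days they did not overlap for 4 of 9, of which SPARC, TGFBI and SPOCK1 were lower and SMOC1 higher, beside 14.0% of all genes lower and 11.7% higher. The median log2 fold change of the 9 genes was -0.15 at 2 days and -0.07 at 4 days, beside 0.01 and 0.02 over all genes.

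Neither the difference between the 2-day and 4-day stiffness effects nor their mean gave a call among the 9 genes, beside 0% and 0.426% of all genes. DESeq2 called 0 of 9 in each as well, beside 0.0150% and 1.44% of its genes. At an unadjusted p under 0.05 the first had 1 gene (SMOC1), beside 1.95% of all genes, and the second 2 lower genes (TGFBI and SPOCK1), beside 4.75% of all genes lower.

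From 2 to 4 days on the soft matrix 4 of 9 genes were called, 3 upward (THBS1, SPARC and SPP1) and 1 downward (SMOC1), beside 27.4% of all genes, 14.1% upward and 13.3% downward. On the stiff matrix 2 of 9 were called, SPARC and SPP1, both upward, beside 27.6% of all genes, 14.0% upward. DESeq2 called 5 of 9 on the soft matrix, with THBS2 in addition, and 3 of 9 on the stiff one, with THBS1 in addition, beside 29.4% and 27.9% of its genes. The 4-day libraries lay above the 2-day ones without overlap for 5 of 9 genes on the soft matrix, beside 38.5% of all genes, and below them for 2 of 9, beside 36.7%. On the stiff matrix they lay above for 4 of 9, beside 31.6%, and below for 1 of 9, beside 31.1%. With 9 genes these counts do not set the group apart from the background. Median log2 fold changes were 0.25 on the soft and 0.28 on the stiff matrix, beside 0.02 and 0.03 over all genes. Each time comparison shares libraries with the stiffness comparisons, so the values are not independent.

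**Figure D3:**
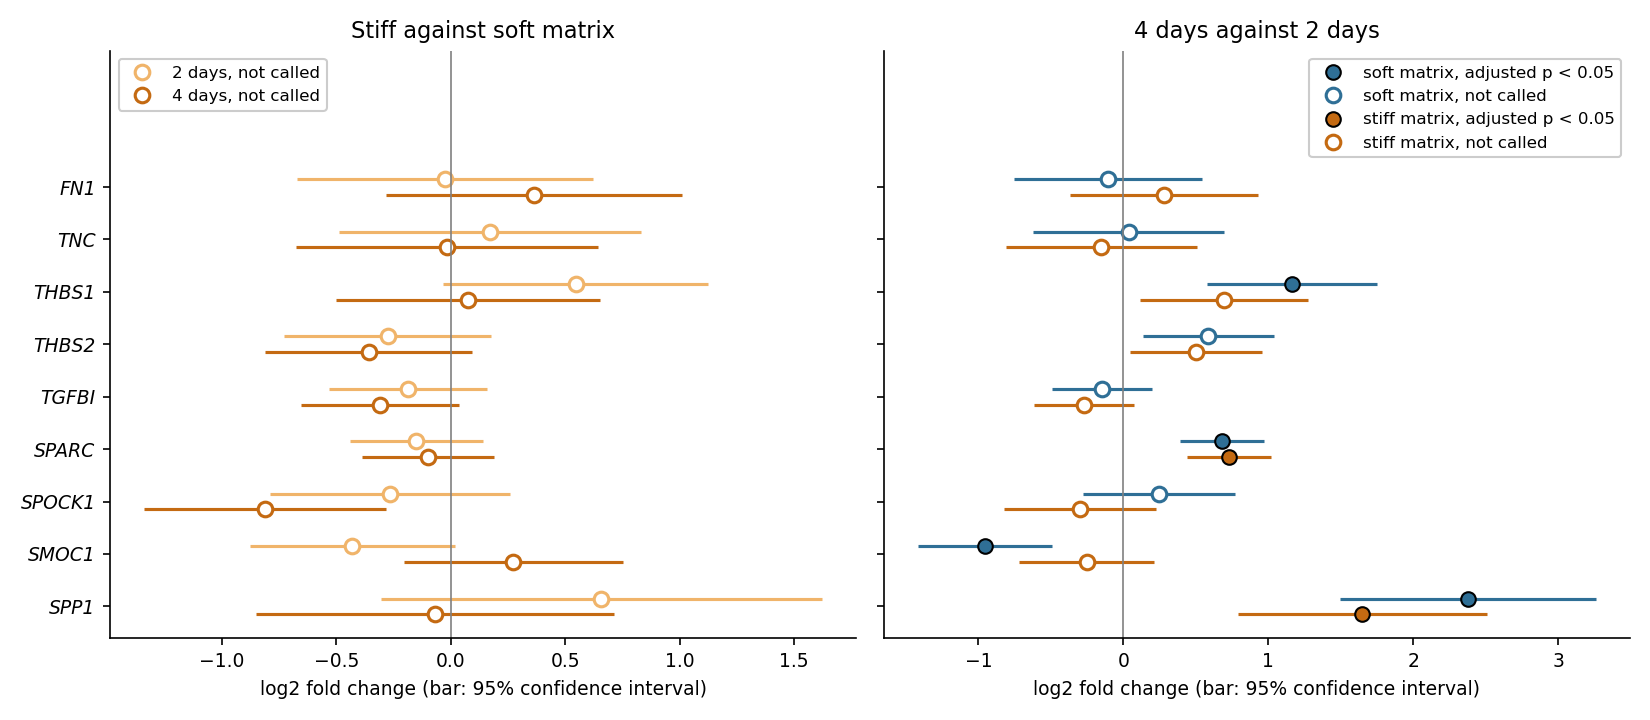
Log2 fold changes of the 9 tested genes, stiff over soft at each day (left) and 4 over 2 days on each matrix (right), with 95% confidence intervals as bars. Filled points passed an adjusted p of 0.05 in edgeR. No stiffness effect is filled, and the filled time effects are SPARC and SPP1 on both matrices and THBS1 and SMOC1 on the soft matrix.

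The 4-day stiffness values of the long genes hung on single libraries, and those of shorter genes moved too. Leaving out each library in turn gave -0.31 to 0.16 for SPP1 and 0.064 to 0.48 for SMOC1. The range was -0.46 to -0.16 for TGFBI and -0.13 to -0.061 for SPARC. Relative gene length, taken from the ratio of counts to FPKM, placed FN1 and TNC above 95.04% and 94.4% of tested genes, THBS2 above 83.4%, THBS1 above 82.7% and SPOCK1 above 74.8%. Between the stiff libraries of day 4, the log2 ratio of replicate 1 to replicate 2 had a median of -0.84 in the shortest decile of all tested genes and of 0.56 in the longest. In the soft libraries of day 4 it went the other way, from 0.29 to -0.26, and at 2 days it stayed between -0.07 and 0.11. The same ratio between the stiff 4-day libraries was 0.84 for FN1, 0.90 for TNC, 0.77 for THBS1, 0.69 for SPOCK1 and 0.52 for THBS2. For the shorter genes it was -0.0039 (SPARC), -0.30 (TGFBI), -0.41 (SMOC1) and -0.47 (SPP1). The part of gene length in these differences beyond the offsets given below was not tested.

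**Figure D4:**
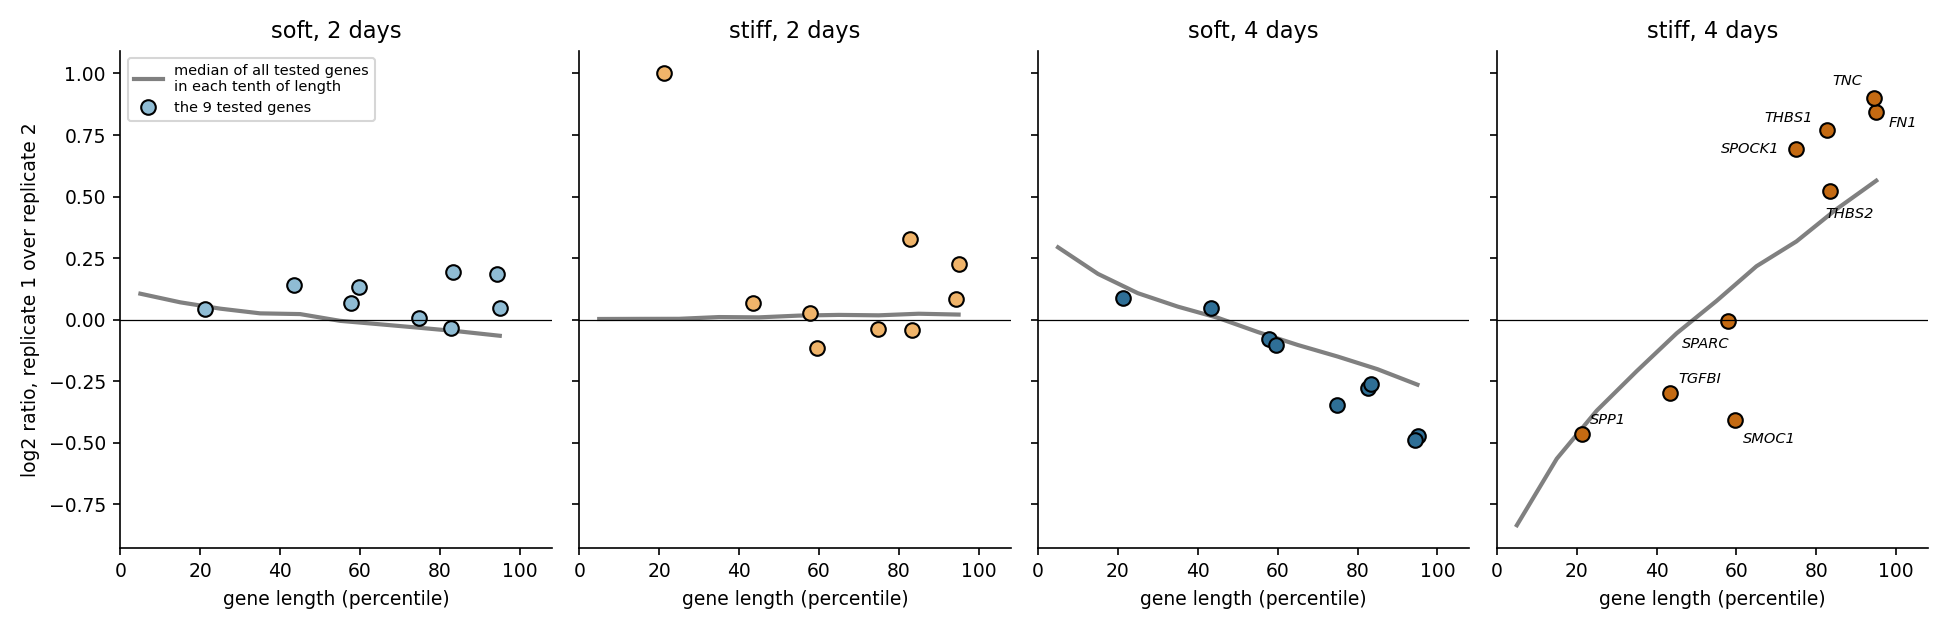
Log2 ratio of replicate 1 to replicate 2 in CPM against the percentile of relative gene length, 1 panel per condition; the grey line is the median of all tested genes in each length decile and points are the 9 tested genes, named in the last panel and at the same horizontal place in the others. In the stiff 4-day pair the line climbs from -0.84 to 0.56 and the long genes TNC (0.90) and FN1 (0.84) lie highest.

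Leaving out either stiff 4-day library gave different answers for these genes. Without replicate 1 the 4-day stiffness effect of FN1 was -0.11, and TNC (-0.53), THBS2 (-0.63) and SPOCK1 (-1.19) were called as lower, with adjusted p-values of 0.0194, 0.00263 and 3.46e-05 in edgeR, beside 31.1% of all genes called. Without replicate 2 FN1 was called as higher at 0.73 (adjusted p = 0.00859 in edgeR), beside 3.63% of all genes, while TNC was at 0.38, THBS2 at -0.11 and SPOCK1 at -0.50. THBS1 went from -0.35 to 0.42 between these fits, and the lone stiff library was taken to vary like the other groups. SPOCK1 kept a negative sign in both, and SPARC was at -0.09 in both. With offsets for gene length, no 4-day stiffness effect of the 9 genes was called, beside 0.721% of all genes, and FN1 stood at 0.45, while on the stiff matrix the time effect was called for 5 of 9 genes, FN1 (0.51), THBS1 (0.80), THBS2 (0.62), SPARC and SPP1, beside 42.6% of all genes.

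On the soft matrix the calls with time, but not the size of the effects, depended on single libraries. Leaving out each library in turn kept the time effect there between 1.02 and 1.27 for THBS1, 0.64 and 0.71 for SPARC, 2.30 and 2.42 for SPP1 and -1.02 and -0.89 for SMOC1 on the log2 scale. Without either soft 2-day library 0 of 9 genes were called on the soft matrix, beside 2.32% and 7.83% of all genes, and without either soft 4-day library SPP1 alone was called, beside 6.76% and 8.22%. On the stiff matrix SPARC stayed between 0.71 and 0.75 and SPP1 between 1.202 and 2.30. SPP1 alone was called there without the first stiff 2-day library and none without the second, beside 5.74% and 3.14% of all genes. Leaving out stiff 4-day replicate 1 called TNC (-0.67) and SPOCK1 (-0.69) as lower beside SPARC and SPP1 as higher, with 52.1% of all genes called. Leaving out replicate 2 called FN1 (0.64), THBS1 (1.02), THBS2 (0.73), SPARC and SPP1 as higher and TGFBI (-0.44) as lower, with 43.8% of all genes called. At 2 days THBS1 was called as higher on the stiff matrix in both of these fits, beside 0.792% and 0.813% of all genes, although its own 2-day libraries were the same.

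**Figure D5:**
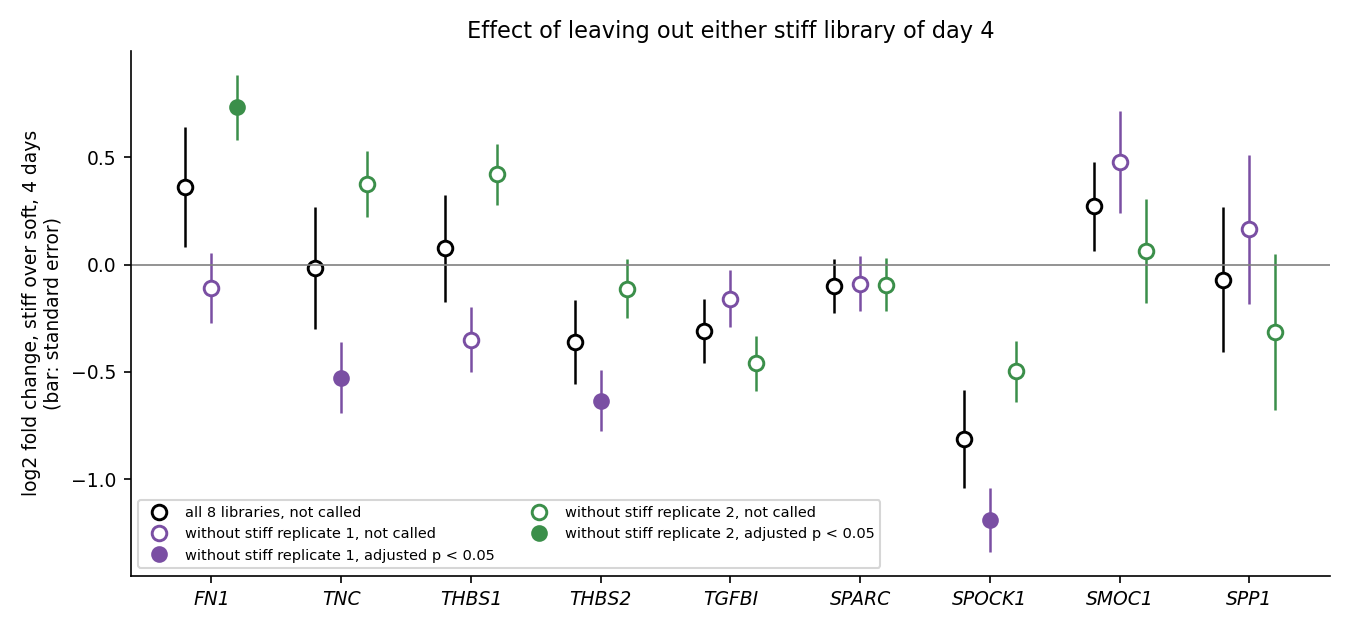
Log2 fold change of stiff over soft at 4 days for the 9 tested genes with all 8 libraries (black), without stiff replicate 1 (purple) and without stiff replicate 2 (green); bars are standard errors and filled points passed an adjusted p of 0.05 in edgeR. FN1 moves from -0.11 to 0.73 between the reduced fits, and SPOCK1 stays below 0 in all 3.

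Genes that work with these proteins were read from 4 lists in the same fit. Of 28 other matrix glycoproteins, 16 were tested, and with time 5 rose and 1 fell on the soft matrix and 8 rose and 1 fell on the stiff matrix, beside 14.1% of all genes up and 13.3% down on the soft and 14.0% up and 13.7% down on the stiff matrix. VTN, which encodes vitronectin, another cell adhesion protein, rose by 1.86 and 2.03 on the log2 scale, EDIL3, an integrin ligand, by 2.04 and 1.86, and MATN2, a matrilin, by 0.99 and 1.21, on the soft and the stiff matrix. FSTL1, a SPARC relative, rose by 0.52 and 0.97, and TNXB, a tenascin, fell by 0.89 and 1.51. VTN was a low gene, at 1.22 to 2.27 CPM in the 2-day libraries. The stiff 4-day libraries differed widely for 3 of these genes, at 3.93 and 8.12 CPM for VTN, 186 and 110 CPM for EDIL3 and 5.55 and 3.17 CPM for TNXB. The matricellular gene CCN2, or CTGF, a YAP target, was at 153 and 139.7 CPM on the soft matrix and 209 and 165 CPM on the stiff one after 2 days, and at 228 and 217 against 410.5 and 409.6 CPM after 4 days. CCN2 rose with time by 0.60 and 1.13, and its 4-day stiffness effect of 0.88 had an adjusted p of 0.0945 in edgeR and was called by DESeq2. CCN1 stood at 844 and 810.4 CPM on the soft matrix and 1190 and 1372 CPM on the stiff one after 4 days, a stiffness effect of 0.63 (adjusted p = 0.261 in edgeR, called by DESeq2), and rose with time on the stiff matrix by 0.77. Neither CCN gene is a member of the group of 10, and CCN2 too is among the markers that the study listed from these libraries.

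Among 20 receptors, 16 were tested, and 5 rose and 3 fell with time on the soft matrix and 3 rose and 3 fell on the stiff one, beside 27.4% and 27.6% of all genes called in either direction. The fibronectin coreceptor SDC4 rose by 1.39 and 1.45, the thrombospondin receptor CD47 by 0.79 and 0.65 and CALR, a thrombospondin partner at the cell surface, by 0.74 and 0.81. The clearance receptor LRP1 fell by 0.89 and 1.06, and EGFR, which tenascin C can engage, fell by 1.95 and 1.96. The stiff 4-day libraries differed widely, at 37.3 and 8.12 CPM for EGFR and 85.3 and 50.2 CPM for LRP1. The stiff 2-day libraries held 90.4 and 87.1 CPM for EGFR and 135 and 147 CPM for LRP1. ITGB8 rose by 1.83 on the soft matrix at no more than 3.07 CPM, and ITGB5 fell by 0.64 on the stiff one. Between the matrices 0 of 16 receptors were called at 2 days and 0 of 16 at 4 days in edgeR, beside 0% and 0.247% of all genes. At an unadjusted p under 0.05 in edgeR the counts were 0 and 2, beside 2.82% and 6.93% of all genes. DESeq2 called 0 and 1, beside 0.196% and 1.08% of its genes.

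Of 16 proteases and crosslinkers that cut or join these proteins, 14 were tested. MMP2 and MMP9, gelatinases that can cut fibronectin and osteopontin, were the 2 called as lower on the stiff matrix at 4 days. Their effects were -2.50 and -3.13 on the log2 scale, beside 0.213% of all genes called lower. The study named both from these libraries. With time ADAMTS1, which cleaves thrombospondins, rose by 1.26 and 1.01 and the crosslinker LOX by 0.58 and 0.78 on the soft and the stiff matrix, and on the stiff matrix MMP2 fell by 1.57 and MMP14 by 0.43. ADAMTS1 was also called in the mean of both stiffness effects, at 0.70. All 17 genes of a TGF-beta response list were tested, with 3 up and 4 down in time on the soft and 2 up and 5 down on the stiff matrix, against the same shares of all genes. The ligand TGFB2 rose by 1.86 and 2.23 and ACTA2 by 0.97 and 0.84. Other genes of the list fell, namely SMAD7 (-0.59 and -1.52), BHLHE40 (-0.77 and -1.69), LTBP2 (-0.77 and -1.31) and ID3 (-0.67 and -0.86). ID1 fell by 0.92 on the stiff matrix. BHLHE40 was the one gene of this list called between the matrices at 4 days, at -1.16, beside 0.247% of all genes. Over all 4 lists, 23 of 63 tested genes were called with time on the soft and 26 of 63 on the stiff matrix, beside 27.4% and 27.6% of all genes. The median time effects of the lists on the soft and the stiff matrix were 0.41 and 0.62 for the glycoproteins, 0.32 and 0.20 for the receptors, 0.17 and -0.062 for the proteases and crosslinkers and -0.30 and -0.36 for the TGF-beta response list, beside 0.02 and 0.03 over all genes.

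Across the 8 libraries, which share conditions and the length pattern of day 4, the log2 CPM of SPARC and SPP1 had a Pearson r of 0.91, of THBS1 and SPP1 0.85, of THBS2 and SPARC 0.84 and of FN1 and TNC 0.78. SMOC1 ran against THBS1 (-0.93) and SPP1 (-0.84), and TGFBI against THBS1 (-0.75). Among 12044 genes with a mean log2 CPM of at least 1, those most like each gene over the 8 libraries included C2CD3 and LOC730101 for FN1 (r = 0.975 and 0.970), AFAP1 for TNC (0.994), KPNA3 for THBS1 (0.996) and SCD and COL5A2 for THBS2 (0.995 and 0.985). For the others they included MCM6 and PPT1 for SPARC (0.996 and 0.994), ITGAV and HRH1 for SPOCK1 (0.996 and 0.994), FOXRED1 and GALT for SMOC1 (0.986 and 0.976), CTSA and TMEM132A for TGFBI (0.975 and 0.967) and TMEM62 for SPP1 (0.987). With 8 points in 4 pairs and 12044 genes searched, such values are a description only. ITGAV, the integrin subunit nearest to SPOCK1 in this measure, was at 68.2 and 67.1 CPM on the soft matrix and 54.8 and 56.5 CPM on the stiff one after 2 days, and at 76.6 and 91.2 against 55.9 and 32.1 CPM after 4 days.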

How the data were processed

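Total RNA of LX-2 cells was sequenced as paired-end reads in 8 libraries, 2 per condition, with groups taken from the labels. Reads were trimmed (TrimGalore) and aligned to hg19 (STAR 2.7.1a, default parameters) by the authors, who deposited whole-number counts per gene from htseq-count, with replicates not pooled. The annotation and strand setting are not given in the sources used here; the exons of 5 of the 10 genes (THBS1, THBS2, TNC, SPARC and SPP1) overlap a gene on the other strand, and reads of such pairs cannot be told apart if strand was ignored. The deposited FPKM equal counts divided by size factors and gene length, since the count to FPKM ratio between libraries was constant over 10056 genes. In R 4.3.3, edgeR 4.0.16 (filterByExpr, 14570 of 25369 genes; TMM; quasi-likelihood fit of 4 conditions to all 8 libraries; Benjamini-Hochberg adjusted p under 0.05) gave the tests from counts; common dispersion was 0.0281. DESeq2 1.42.0, other scalings and filters, separate fits, a replicate block, limma 3.58.1 on log2(FPKM + 1) or log2(FPKM + 0.1) and leaving out each library were alternatives; gene length offsets (spline with 5 degrees of freedom) and a crossed block were added after the data were seen. Fits were tested on simulated counts.

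The genes, lists and rules were chosen with earlier results of these data known. Named in addition were, per list and comparison, up to 6 called genes with the largest changes, CCN1 and CCN2, and the 2 genes most correlated with each tested gene; a few items that these rules name are not reported here. Gene positions are from GENCODE v44lift37 (GRCh37) and promoters from RefSeq (GRCh38.p14). Every column was matched to its sample.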

Additional observations from a re-analysis of the deposited data

Results flagged for a closer look

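SMOC1 libraries separated in opposite directions between the matrices at the 2 times, while neither stiffness effect was called (adjusted p = 0.9999 and 0.856 in edgeR). Both stiff libraries lay below both soft ones at 2 days (log2 fold change -0.43, standard error 0.19) and above them at 4 days (0.27, standard error 0.21). The difference of 0.70 between these effects was tested in the edgeR fit. It had an unadjusted p of 0.0387, beside 1.95% of all genes under the unadjusted threshold, and an adjusted p of 0.9997 over all genes. DESeq2 gave the difference an unadjusted p of 0.0653. At 4 days the nearest libraries were 3.97 CPM (soft) and 3.98 CPM (stiff), so the separation there is slight. With 2 libraries per condition, no library could be tested as an outlier.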

How the results depend on the processing

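Each of 2 libraries per condition carries much weight, and genes of few counts (SPP1, SMOC1, POSTN) are limited by depth. THBS1, SPARC, SPP1 and SMOC1 were called on the soft matrix from 2 to 4 days in all 12 alternatives other than leaving out a library. SPARC and SPP1 were called on the stiff matrix in 11 of 12. SPP1 lay at 0.337 to 0.739 FPKM in the 2-day libraries and at 1.42 to 1.97 FPKM in the 4-day ones. It passed the limma filter, at least 1 FPKM in 2 libraries, only through the 4-day libraries. The filtered limma fits thus add no support for its rise. The separate fit of the 2 groups called 3 members between the matrices at 2 days (THBS1, THBS2 and SPOCK1), beside 4.67% of all genes. With time on the stiff matrix it called 0 members, beside 0 of 14069 genes. Gene length offsets called 5 there, beside 42.6% of all genes, and 1 in the mean stiffness effect, beside 1.30%. In the related lists some counts of called genes moved by over 1.5 times. Between the matrices at 2 days they were 3 (DESeq2, beside 0.196% of all genes) and 15 (separate fit, 4.67%) against 0 (0%). At 4 days they were 9 (DESeq2, 1.08%) and 0 (separate fit, 0 of 13888 genes) against 3 (0.247%). There limma on log2(FPKM + 1) without a filter called 0, beside 8 genes up and 12 down of 20029. The crossed block called 5, beside 15 up and 47 down of 14570, and length offsets called 9 (0.721%). With time on the soft matrix limma without a filter called 15, beside 1573 up and 1762 down of 20029, against 23 (27.4%). On the stiff one the separate fit called 0, beside 0 of 14069 genes, against 26 (27.6%). Without scaling factors the genes called with time were 1438 up and 2130 down on the soft and 1305 and 2313 on the stiff matrix, against 2052 and 1933, and 2034 and 1990. Apart from left-out libraries, 4 fold changes changed sign, THBS1 at 4 days (-0.021) and TNC with time on the soft matrix (-0.038) without scaling factors, and TNC at 4 days (0.067) and with time on the stiff matrix (0.061) with length offsets. The causes were not tested.

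Same-numbered libraries did not deviate together (correlations -0.04 at 2 days, -0.49 at 4 days, 0.08 and 0.02 across days), so the numbers were not taken as pairs. With the replicate block the members called were 0, 0, 4 and 2 in the stiffness comparisons at 2 and 4 days and the time comparisons on the soft and stiff matrix, beside 0, 14, 2626 and 2543 of all 14570 genes, and the related genes called with time on the soft matrix were 11. The crossed block, chosen after seeing the negative correlation, called 0, 0, 5 and 2 members, beside 0%, 0.426%, 31.2% and 31.2% of all genes.

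Leaving out each library in turn gave 0 to 1 members called between the matrices at 2 days, 0 to 3 at 4 days, 0 to 5 with time on the soft matrix, 0 to 6 on the stiff matrix, 0 to 4 for the change of the stiffness effect and 0 to 4 for its mean. The related genes called ranged from 0 to 7, 0 to 34, 4 to 38 and 7 to 42 in the first 4 of these. The highest of each of these counts came without 1 of the stiff 4-day libraries. In those fits a larger share of all tested genes was called as well, in each of these comparisons, than with all libraries. The highest counts alone thus do not set the members or the related genes apart from the background. Without either soft 2-day library no member was called with time on the soft matrix, and without either soft 4-day library only SPP1 was, while the effects stayed at 1.02 to 1.27 (THBS1), 0.64 to 0.71 (SPARC), 2.30 to 2.42 (SPP1) and -1.02 to -0.89 (SMOC1). Signs changed for FN1 (-0.14 to 0.088 at 2 days, -0.11 to 0.73 at 4 days, -0.36 to 0.085 and -0.20 to 0.64 with time on the soft and stiff matrix), TNC (-0.53 to 0.38 at 4 days, -0.23 to 0.23 and -0.67 to 0.22 with time), THBS1 (-0.35 to 0.42 at 4 days) and SPP1 (-0.31 to 0.16 at 4 days).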
